A study of Mus musculus with 12 samples.

Results

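The genes described here are 43 members of the interferon response and of antigen presentation on major histocompatibility complex (MHC) class I, out of 22911 genes listed for epiblast-like cells (EpiLCs) with and without functional *Kdm5c*. They were chosen by name, from results of the contrast of mutant with control libraries in these data, and all 43 were found. They comprise 5 genes of pattern recognition and signalling, 5 transcription factors, 19 antiviral effectors, 4 guanylate-binding proteins and 10 genes of antigen processing and class I presentation. EpiLCs, which resemble the early post-implantation epiblast, were made by differentiating mouse embryonic stem cells (ESCs) for 48 h with FGF2 and Activin A. RNA-Seq covered 4 groups of 3 libraries, the female controls *Kdm5c* fl/fl with the female mutants *Kdm5c* Δ/Δ, and the male controls *Kdm5c* flY with the male mutants *Kdm5c* ΔY. The controls of both sexes carry loxP-flanked *Kdm5c* alleles, and the Δ allele lacks exons 11 and 12, which encode part of the catalytic JmjC domain. *Kdm5c*, named *Smcx* in the sample labels, is an X-linked gene for a histone H3 lysine 4 demethylase, so females lack both alleles and males the only one. The labels give C57BL/6J as the strain of every sample, the study describes a mixed background, and it names 3 independent ESC lines for each genotype.

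Type I interferons bind the receptor chains IFNAR1 and IFNAR2, and the kinases JAK1 and TYK2 then activate STAT proteins, which join IRF9 and bind the interferon-stimulated response element (ISRE) in target genes. Interferon gamma signals through its own receptor to the gamma-activated site (GAS). On the presentation side, the immunoproteasome cuts proteins into peptides, the TAP transporter carries these into the endoplasmic reticulum, and tapasin helps to load them onto a class I heavy chain paired with beta-2 microglobulin. Pluripotent cells are known for weak interferon responses and for little class I at their surface.

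The deposited values are group means of normalized counts, that is, of reads scaled by library size factors, and the reads of every library were worked out from them. Between 5516216 and 11092731 reads were recovered per library, and letters A, B and C mark the 3 libraries within a group, in order of falling size factor. Counting intervals given below cover counting error only, since PCR copies may have been counted. Log2 fold changes are differences of mean log2(normalized count + 1), given with their SE over 3 libraries against 3, and a gene is called when its adjusted p in limma is under 0.05. In the male groups, libraries flY B and ΔY A stood apart from the other libraries of their genotype, with 16.7 to 17.2 and 27.2 to 29.9 of chi-square per gene against 2.21 and 2.63 for the remaining pair. Chi-square per gene was 1.92 to 4.38 for pairs of female libraries, and no pair agreed within sampling noise. Libraries flY A and flY C carried 9396 and 10333 normalized counts on 1122 olfactory receptor genes, which EpiLCs are not known to use, against 1322 to 2776 in the other 10 libraries. The sum of 8 epiblast markers, all measured at 10 or more, was 13032 to 13339 in fl/fl and 14772 to 15352 in Δ/Δ, with 3 called higher and 4 lower, and 13960 to 21071 in flY and 10149 to 15517 in ΔY, with 3 called lower. In bulk RNA, fewer cells of a type and less RNA per cell cannot be told apart.

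*Kdm5c* itself stood at 2336, 2429 and 2315 normalized counts in the fl/fl libraries and at 1406, 1447 and 1505 in the Δ/Δ libraries, a log2 fold change of -0.70 ± 0.05 with adjusted p = 4.7e-09 in limma. Male libraries held 2195, 2110.1 and 2371 in flY and 1897, 1943 and 1976 in ΔY, a log2 fold change of -0.20 ± 0.11 with adjusted p = 0.274. All mutant values lay below all control values in each sex. These counts cover the whole gene and not the 2 deleted exons alone, so they are no direct check of the deletion.

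Sequences upstream of the members are shown first, because the pathway acts through short elements there. RefSeq promoters of GRCm38.p6 (250 bases before to 50 after the gene start) were matched for 34 of the 43 members, some with several promoters, and a gene counts once if any of its promoters holds the letters. The ISRE core, spelled as GAAA, any 2 bases and GAAA again (TTTC, any 2 bases and TTTC on the opposite strand), was found for 15 of these 34 genes (44.12%), against 3.993% of all 27025 genes with a promoter. The GAS core TTCNNNGAA, which reads the same on both strands, was found for 9 of 34 (26.47%), against 9.554% of all genes. The searches for the cores were separate, and a stretch may match both. The stretches below belong to members on which the results turn, written 5′ to 3′ on the strand of the gene. An ISRE core is in capitals, and that of *Gbp3* overlaps another match, whose remaining letters are in lower case.
Gbp7: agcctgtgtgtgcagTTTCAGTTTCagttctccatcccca
Gbp3: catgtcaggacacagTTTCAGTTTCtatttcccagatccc
Gbp2b: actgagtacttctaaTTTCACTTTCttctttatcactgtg
Gbp2: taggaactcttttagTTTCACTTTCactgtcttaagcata
Rsad2: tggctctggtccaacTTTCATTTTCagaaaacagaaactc
B2m: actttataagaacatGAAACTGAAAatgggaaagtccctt
Stat2: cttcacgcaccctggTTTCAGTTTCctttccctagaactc
They lie at chr3:142530268-142530307, chr3:142559984-142560023, chr3:142594695-142594734 and chr3:142620589-142620628 (plus strand) for the 4 Gbp genes, at chr12:26456548-26456587 (minus strand) for *Rsad2*, at chr2:122147533-122147572 (plus strand) for *B2m* and at chr10:128270261-128270300 (plus strand) for *Stat2*, all in GRCm38.p6. *Psmb8* has a GAS core, in capitals here, at chr17:34198083-34198121 (plus strand).
Psmb8: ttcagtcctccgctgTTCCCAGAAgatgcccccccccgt
The 4 guanylate-binding protein genes stand side by side and all carry the ISRE core, yet their values differed between genotypes in unlike ways, as given below. Among the matched members, the median log2 fold change in females was -0.55 for the 15 with an ISRE core and -0.15 for the 19 without one. In males the medians were 0.02 and 0.22. The members were chosen on these contrasts, so the medians describe them and test nothing. A match is a description of letters and not a site shown to be bound.

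Levels of the members spanned a wide range when divided by exonic length (GENCODE models on mm9). *Bst2*, which tethers budding virus to the cell, was the highest at 913 normalized counts per kb in fl/fl and 943 in flY. *B2m*, the light chain of class I, followed at 418 and 527 per kb. *Xaf1*, a pro-apoptotic interferon-stimulated gene, *Psmb10*, an immunoproteasome subunit, and *Trim25*, a ubiquitin ligase of the RIG-I pathway, came next by the mean over the 4 groups. The classical interferon-stimulated genes *Ifit1*, *Oasl1*, *Mx2*, *Rtp4* and *Ifi44* were near the bottom, and none of them exceeded 10.1 normalized counts in any library. Class I heavy chains differed between each other and between the sexes. Per kb, *H2-K1* was at 38.2 in fl/fl and 139 in flY, whereas *H2-D1* was at 19.8 and 21.1.

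In females, the Δ/Δ libraries carried less RNA than the fl/fl libraries of most members that prepare peptides for class I. They carried more of both heavy chains that are members. Among members with a mean of 10 or more, the largest difference was that of *Psmb8*, the LMP7 subunit of the immunoproteasome, whose mean counts were 8.43-fold lower in Δ/Δ. Over all 43 members, 5 were called higher and 18 lower in Δ/Δ, and 20 were not called. Across the 19583 genes tested, 25.4% were called higher and 24.6% lower. The Δ/Δ libraries lay wholly above the fl/fl libraries for 7 members and wholly below them for 26, where this held for 27.6% and 27.2% of all genes. The members were chosen on this contrast, so these counts describe them and test nothing. Their median log2 fold change was -0.48, beside 0.00 for all genes, and it was the same with *Mx2* at its bound against 3 reads per group and *Gbp2b* and *Ifi44*, which have at most 3 reads in either female group, left out. Among genes of similar level, with a mean of 10 to 100, 30.4% of 4348 genes were called lower and 22.7% higher, and 9 and 1 of the 18 members in that range. Between 100 and 1000 the shares were 33.5% lower and 34.7% higher of 7255 genes, and 5 and 2 of 13 members.

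Genes of the immunoproteasome and of the transporter were mostly lower in Δ/Δ. *Psmb8* was at 46.3, 71.4 and 61.1 normalized counts in fl/fl and at 7.05, 10.1 and 4.04 in Δ/Δ, a log2 fold change of -2.96 ± 0.32. *Psmb9*, which encodes the LMP2 subunit, was at 85.5, 104 and 129 in fl/fl and 36.8, 29.5 and 33.3 in Δ/Δ (-1.63 ± 0.18). Neither gene had a Δ/Δ library that reached the lowest control. The third inducible subunit, *Psmb10*, behaved otherwise, with 319, 417 and 364 and then 360.5, 339 and 365, and the groups overlapped. *Tap1* and *Tap2* encode the pair of subunits of the peptide transporter. *Tap1* stood at 200.2, 209 and 199 in fl/fl and 70.5, 59.8 and 56.6 in Δ/Δ (-1.69 ± 0.12), and *Tap2* at 61.4, 71.4 and 78.9 and 25.1, 26.9 and 27.3 (-1.38 ± 0.19). Every mutant value of both genes lay below every control value. *Tapbp*, the gene of tapasin, differed less, with a log2 fold change of -0.77 ± 0.07 and no overlap.

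Class I chains among the members divided into a light chain that was lower and heavy chains that were higher. *B2m* was at 343, 391 and 345 in fl/fl and 296, 301 and 269 in Δ/Δ (-0.32 ± 0.08). *H2-K1* was at 92.5, 102 and 105 and 124, 129.6 and 135 (0.38 ± 0.12), and *H2-D1* at 55.3, 53.8 and 44.5 and 76.8, 79.97 and 88.9 (0.67 ± 0.16). The 3 libraries of each genotype did not overlap for any of the 3 genes. H2-K1 and H2-D1 belong to a family of near-identical copies, and reads shared between copies may have been lost or split in counting. *Nlrc5*, the transactivator of class I genes, was low in both, with means of 6.75 ± 3.02 and 6.36 ± 0.344 (SD, n = 3).

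Sensors of viral RNA and DNA went in both directions. *Trim25* was at 585, 584 and 616 in fl/fl and 1518, 1568 and 1527 in Δ/Δ (1.37 ± 0.06). *Ddx58*, the gene of the RNA sensor RIG-I, was at 73.4, 95.5 and 92.3 and 140.3, 170.0 and 156 (0.83 ± 0.13). Both genes were thus higher in every Δ/Δ library. *Dhx58*, which encodes the RIG-I relative LGP2, was lower at 5.49, 10.1 and 9.09 against 25.1, 14.3 and 15.6 (-1.06 ± 0.35). *Zbp1*, a sensor of Z-form nucleic acids, was also lower, at 7.84, 9.26 and 6.06 against 16.1, 25.3 and 20.0 (-1.29 ± 0.33). The RNA sensor gene *Ifih1* (MDA5) held 7.58 to 17.8 over the 6 female libraries, with a log2 fold change of -0.53 ± 0.35.

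Of the 19 antiviral effectors, 1 was called higher (5.26%) and 7 lower (36.8%) in Δ/Δ, beside 25.4% and 24.6% of all genes. *Rsad2*, which encodes viperin, was at 30.2, 19.8 and 26.7 in fl/fl and only 3.92, 3.37 and 3.03 in Δ/Δ (-2.56 ± 0.34). *Ifi35*, an interferon-induced leucine zipper protein, was at 45.3, 59.3 and 45.6 and 25.1, 23.6 and 29.3 (-0.91 ± 0.22). *Ifit3*, a binder of viral RNA, was at 22.1, 18.7 and 27.8 and 13.3, 10.9 and 13.1 (-0.81 ± 0.29). All 3 were lower in every mutant library. *Bst2* was lower as well, by a smaller step (-0.55 ± 0.06). *Xaf1* was the exception, at 1236, 1358 and 1365 in fl/fl and 2571, 2678 and 3088 in Δ/Δ (1.07 ± 0.07). Effectors at 10 or more that were not called had log2 fold changes between -0.51 (*Ifit2*) and 0.26 (*Parp14*). *Isg15*, *Oasl2*, *Eif2ak2*, *Adar* and *Parp9* were also among these, with *Isg15* at -0.48.

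Among the transcription factors, *Stat2* was the one called, at -0.56 in Δ/Δ. *Irf3*, the factor activated by RNA and DNA sensing, was at 202, 180.1 and 186 and 237, 205 and 201, and its groups overlapped (0.18 ± 0.10). *Irf1* and *Irf9* had log2 fold changes of -0.15 and 0.32. Guanylate-binding proteins attack membranes around intracellular pathogens. *Gbp2*, *Gbp3* and *Gbp7* were each lower in all Δ/Δ libraries, with -0.62, -0.44 and -0.65, and *Gbp2* alone of these was called. *Gbp2b* had 3 reads over the fl/fl libraries and none over the Δ/Δ libraries. The 10 members with a mean under 10 in females were *Irf7*, *Ifit1*, *Oas1a*, *Oasl1*, *Usp18*, *Mx2*, *Rtp4*, *Ifi44*, *Gbp2b* and *Nlrc5*, with log2 fold changes from -1.56 to 0.59 that rest on few reads. Among them, *Oas1a*, *Mx2*, *Rtp4* and *Gbp2b* belong to the 18 members called lower. *Mx2* had 4 reads in fl/fl against 0 in Δ/Δ, *Gbp2b* 3 against 0, *Rtp4* 8 against 1 and *Oas1a* 37 against 20.

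**Figure D1:**
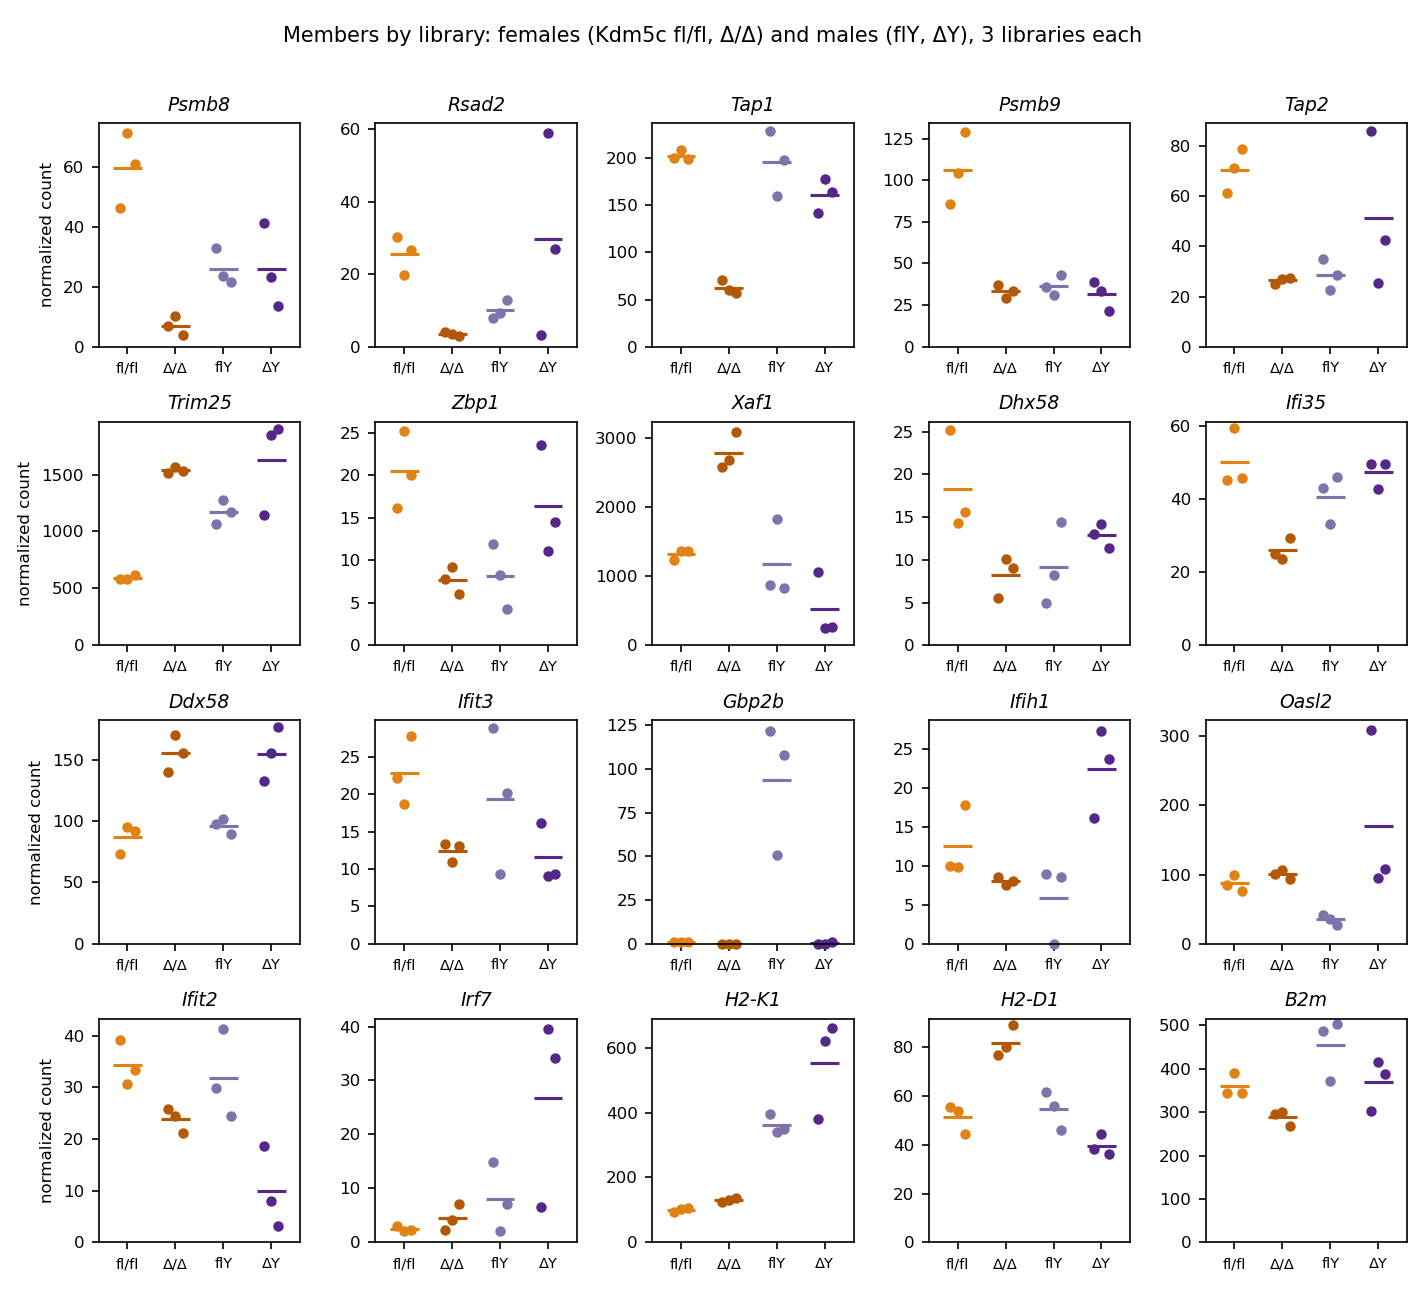
Normalized counts (linear axis from 0) of 20 members in every library, with a bar at the mean of the 3 libraries of each genotype. *Psmb8*, *Psmb9*, *Tap1* and *Tap2* are lower in all Δ/Δ than in all fl/fl libraries, *Gbp2b* is high in the 3 flY libraries alone, and 1 ΔY library of *Oasl2* lies at 308 above the other 2.

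The Δ/Δ libraries also differed in markers of other cells. The summed level of 6 primitive endoderm markers was 429 to 479 in fl/fl and 3523 to 3688 in Δ/Δ, with all 6 called higher. That of 9 fibroblast markers was 2912 to 2979 in fl/fl and 1205 to 1302 in Δ/Δ, with 5 called lower and *Lum* under 4 in every library. That of 9 blood and immune markers was 91.2 to 104 in fl/fl and 138 to 165 in Δ/Δ, where 5 of the 9 were under 10 in every group and *Ptprc* was at 0 in fl/fl. The 6 naive ESC markers summed to 642 to 654 and 2131 to 2261, with 5 called higher. Sums of the 6 trophoblast markers were 373 to 392 and 523 to 553, with 2 called higher and 1 lower. The part of these in the values above was not tested.

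In males, fewer members separated the genotypes, and those that did were mostly higher in ΔY. *Gbp2b* was the largest difference, and it was lower. Of the 43 members, 3 were called higher (*Oasl2*, *Usp18* and *Tapbp*) and 1 lower (*Gbp2b*), against 4.19% and 3.58% of all 21900 genes tested. The ΔY libraries lay wholly above the flY libraries for 13 members and wholly below for 4, where this held for 12.6% and 13.9% of all genes. The median log2 fold change of the members was 0.33, while that of all genes was -0.16. With a minimum mean of 10 these medians were 0.28 and 0.0008. With 100 to 1000 normalized counts, the median of 16 members was 0.24 and that of 7593 genes 0.02. In that range 7.32% of genes were called higher and 4.85% lower, and 2 and 0 of the members. These counts turned on single libraries: the members called were 1 to 14 when any 1 library was left out, 14 without ΔY A, 7 without flY B and 1 without flY C. Without both flY B and ΔY A, a choice made after seeing the data, 21 members were called among 9377 genes in all. The male controls of that fit are flY A and C, the libraries with raised olfactory receptor counts.

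*Gbp2b* was at 122, 50.7 and 108 normalized counts in flY and at 0, 0 and 1.03 in ΔY. This was 246 reads against 1 read, a ratio of 294 with an exact 95% counting interval of 52.3 to 11656. The lower flY value belongs to library B, whose olfactory receptor counts were not raised. Its neighbours on chromosome 3 did not follow it. *Gbp2* was at 93.7, 58.9 and 97.7 in flY and 150.1, 144 and 144 in ΔY (0.83 ± 0.23), and *Gbp7* had a log2 fold change of 0.83 ± 0.32, both with every ΔY library above every flY library. *Gbp3* overlapped between the groups (-0.26 ± 0.38). The 4 genes lie within 107.7 kb on mm9 chromosome 3 (142193302 to 142300972), in the order *Gbp7*, *Gbp3*, *Gbp2b* and *Gbp2*, and are similar in sequence, so that reads could be lost or split between them in counting.

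Of the 5 genes of pattern recognition 0 were called in males, and of the 19 antiviral effectors 2, *Oasl2* and *Usp18*, both higher in ΔY. Among all genes, 4.19% were called higher and 3.58% lower. *Ifih1* was at 8.97, 0 and 8.62 in flY and 16.2, 27.4 and 23.8 in ΔY (2.33 ± 0.84), so that the groups did not overlap, although 1 flY library held no read. *Oasl2*, a relative of the 2′-5′ oligoadenylate synthetases, was at 41.9, 36.2 and 27.3 and 308, 95.3 and 108 (2.05 ± 0.42). Its value in ΔY A stood far above those of ΔY B and C, and without flY B and ΔY A its log2 fold change was 1.55. *Irf7*, the factor that amplifies interferon production, was at 15.0, 2.07 and 7.19 and 6.49, 39.5 and 34.1 (1.58 ± 0.79). Here ΔY A lay with the controls, and the groups overlapped. *Tapbp* was at 435, 335 and 411 in flY and 618, 788 and 703 in ΔY (0.84 ± 0.15), which was 0.81 without flY B and ΔY A.

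*Ifit2* and *Xaf1* were lower in the mean of ΔY. *Ifit2* was at 29.9, 41.4 and 24.4 in flY and 18.7, 8.11 and 3.10 in ΔY (-1.83 ± 0.58), with no overlap. *Xaf1* was at 871, 1831 and 832 in flY and 1058, 251 and 268 in ΔY (-1.40 ± 0.51). In *Xaf1*, flY B stood above the other flY libraries and ΔY A above the other ΔY libraries, so ΔY A lay among the controls. *Dnmt3b*, an epiblast marker picked after its values were seen, shared that order of libraries, at 3212, 7264 and 3337 in flY and 4544, 2044 and 2121 in ΔY. The other epiblast markers did not place ΔY A among the controls. It lay below every flY library for *Pou5f1*, *Otx2*, *Fgf5*, *Pou3f1* and *Zic2*, and above every flY library for *Sox2* and *Nanog*.

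The class I chains among the members overlapped between the male groups, except for *H2-D1*. *H2-K1* was at 396, 340.1 and 349 in flY and 381, 620.3 and 659.9 in ΔY (0.58 ± 0.20), and *H2-D1* at 61.8, 55.8 and 46.0 and 38.1, 44.6 and 36.2 (-0.45 ± 0.27). *B2m* was at 487, 371 and 503 and 304, 415 and 388 (-0.30 ± 0.17). All ΔY libraries of *H2-D1* lay below those of flY. *Psmb8*, *Psmb9*, *Psmb10*, *Tap1* and *Tap2* all overlapped, with log2 fold changes from -0.27 to 0.66. *Irf3* was at 151, 197 and 164 and 214, 219.9 and 207 (0.33 ± 0.16), above the controls in each ΔY library. *Irf1* and *Irf9* were likewise without overlap, at 0.76 and 0.64. The remaining members with a mean of 10 or more in males, which included *Trim25*, *Ddx58*, *Stat2*, *Isg15*, *Bst2*, *Rsad2* and *Parp14*, had log2 fold changes from -0.62 to 0.95. The 7 members with a mean under 10 were *Ifit1*, *Oasl1*, *Usp18*, *Mx2*, *Rtp4*, *Ifi44* and *Nlrc5*, from -2.34 to 2.22.

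Markers of other cells differed between the male groups too. The 9 fibroblast markers summed to 1029 to 1175 in flY and 5022 to 5993 in ΔY, with 5 called higher. Sums of the 6 trophoblast markers were 346 to 450 and 941 to 1907, with 4 called higher. Those of the 6 naive ESC markers were 920 to 1970 and 2976 to 4488, with 3 called higher. No marker of these lists was called lower. Primitive endoderm markers summed to 1746 to 2477 in flY, and in ΔY to 532 in library A and 2253 to 2338 in the other 2. Of these 6 markers 1 was called lower. Blood and immune markers summed to 134 to 217 and 116 to 279, with 1 of 9 called lower, and *Tyrobp* was at 0 in ΔY. The part of these in the values above was not tested.

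Set side by side, the direction was shared between the sexes for some members and not for others. In all, 8 members had no overlap in either sex and opposite directions, namely *Ifih1*, *Irf1*, *Usp18*, *Rtp4*, *Gbp2*, *Gbp7* and *Tapbp*, lower in Δ/Δ and higher in ΔY, and *H2-D1*, higher in Δ/Δ and lower in ΔY. Another 5 had no overlap and the same direction (*Ddx58*, *Parp9* and *Parp14* higher, *Ifit2* and *Gbp2b* lower), though *Gbp2b* had at most 3 reads in a female group. By sign alone, 17 members were lower in Δ/Δ and higher in ΔY, 3 the reverse, 10 higher in both and 13 lower in both. Of all genes, 27.6% lay wholly above and 27.2% wholly below the controls in females, and 12.6% and 13.9% in males. How many genes combined the sexes in these ways was not counted, so the numbers are not shown to be particular to the members. The members were chosen on both contrasts, so the interaction term fitted to all genes is not given as a test of them.

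**Figure D2:**
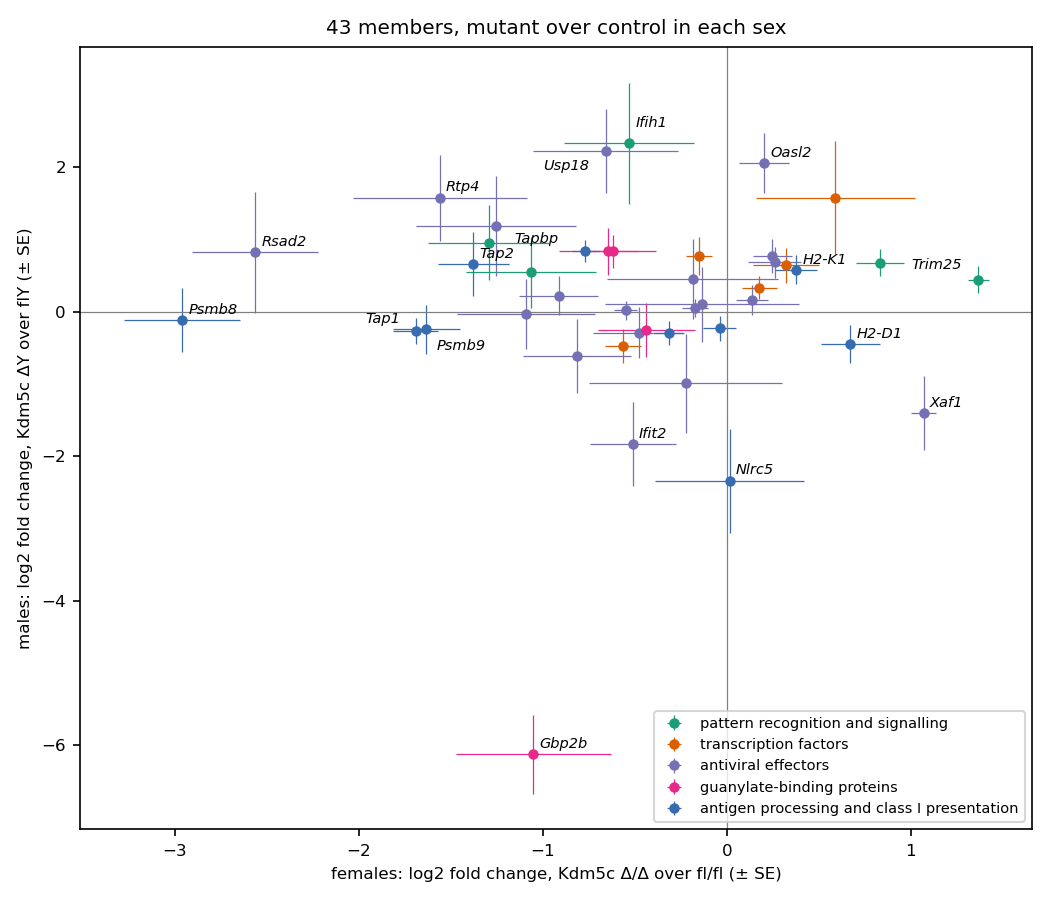
Log2 fold change of mutant over control, of log2(normalized count + 1) with SE over 3 libraries each, for the 43 members in females (horizontal) and males (vertical), coloured by role. *Psmb8*, *Rsad2*, *Tap1* and *Psmb9* lie between -2.96 and -1.63 in females and between -0.27 and 0.82 in males, and *Gbp2b* lies at -6.12 in males, a value that depends on the added 1 because ΔY held 1 read.

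Most class I processing genes stand in one stretch of chromosome 17. On mm9, *Psmb9* (34318933 to 34324709, minus strand), *Tap1* (34324498 to 34334170, plus), *Psmb8* (34334666 to 34338399, plus) and *Tap2* (34340472 to 34353266, plus) lie within 34.3 kb. The exons of *Psmb9* and *Tap1* overlap by 212 bp on opposite strands, and whether counting used the strand is not given in the sources used here. *Irf3*, *Irf7*, *Irf9*, *Parp9* and *Tapbp* also share exonic bases with a neighbouring gene. In the 1271 kb from *H2-K1* to *H2-D1*, 65 genes were not on any pathway list. Of these, 62 were tested in females, with 14 called higher, 23 lower and a median log2 fold change of -0.05. Of all genes, 25.4% were called higher and 24.6% lower in females, and 4.19% and 3.58% in males. In males 4 of the 65 were called higher and 0 lower. Closest by, within 150 kb of the *Psmb9* start, 4 genes were on no list (*Col11a2*, *Brd2*, *H2-DMb2* and *H2-Eb2*). Their female log2 fold changes ran from -0.36 to 0.42, with *Brd2*, a chromatin reader expressed far above the others, at 0.09 ± 0.05. *H2-DMb2* and *H2-Eb2* are class II genes too, with female means of only 0.87 and 0.67 normalized counts. The female mean of *Col11a2* was 16.8. The listed class II genes lie on either side of the 4 members and are described next.

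**Figure D3:**
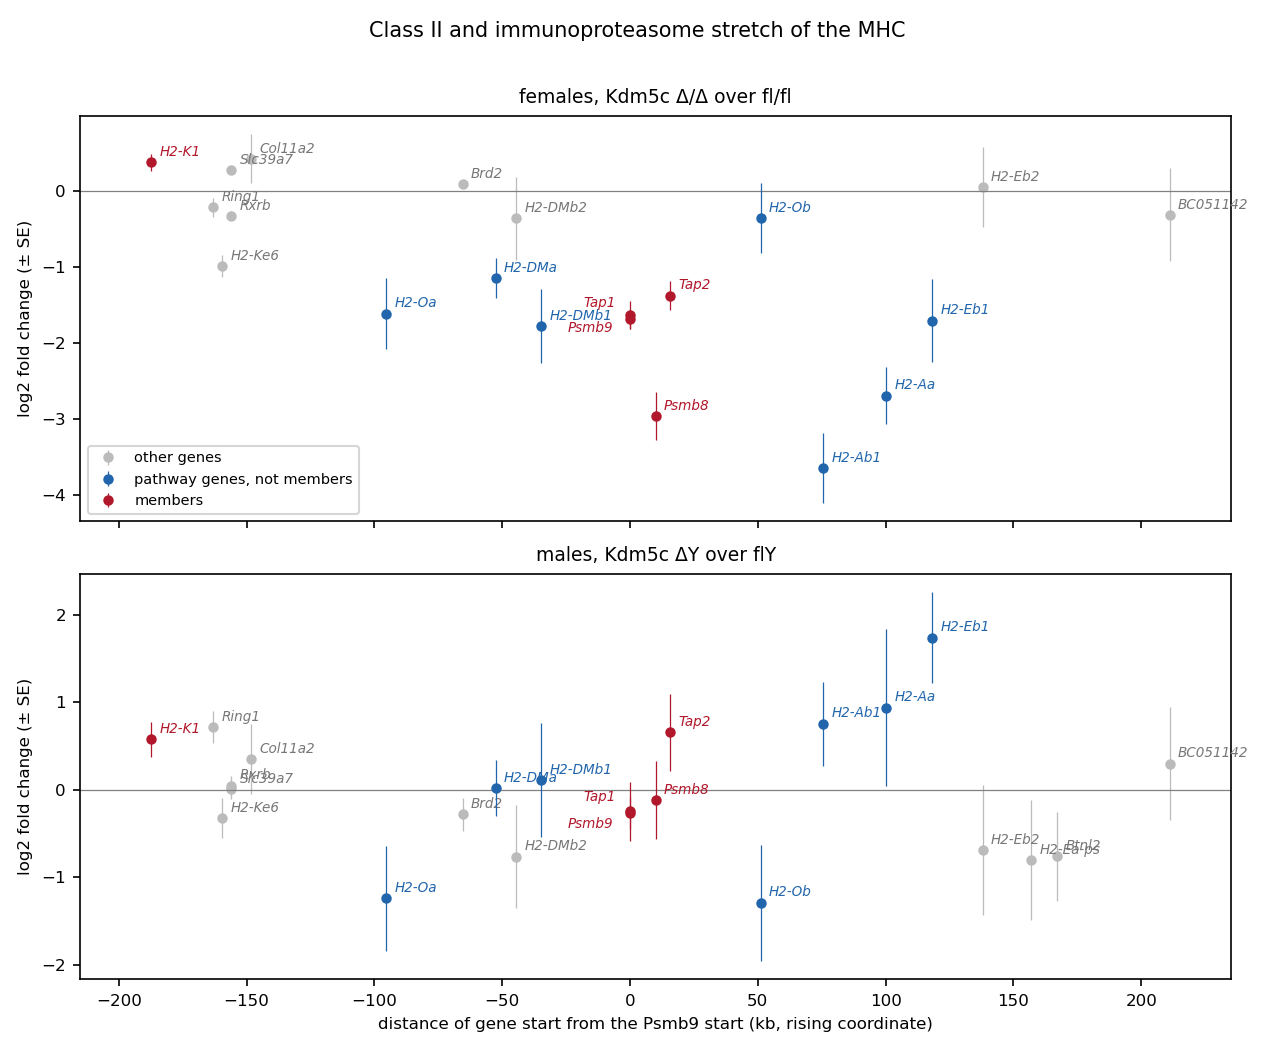
Log2 fold change (± SE) against the distance of each gene start from that of *Psmb9* in kb, in females (top) and males (bottom), for members, other pathway genes and genes on no list. In females *Tap1*, *Psmb9*, *Psmb8* and *Tap2* and the listed class II genes lie between -1.15 and -3.64 except *H2-Ob* at -0.36, and *Brd2* lies at 0.09. *H2-Oa*, *H2-DMb1* and *H2-Eb1* rest on few reads, with female means of 2.30, 1.95 and 4.15.

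Genes of the same pathways that are not among the members were tested, from lists drawn up with earlier results of these data known. In females, 135 of 150 were tested, and 30 rose and 42 fell, beside the 25.4% and 24.6% of all genes called in each direction. Of 14 class II presentation genes, 8 fell and 1 rose, and 6 had a mean under 10, where few reads decide a fold change. *H2-Oa*, *H2-DMb1* and *H2-Eb1*, with female means of 2.30, 1.95 and 4.15, were among those that fell. Those that fell also included *H2-Ab1* and *H2-Aa*, the chains of I-A, which antigen-presenting cells use to show peptides to helper T cells. *H2-Ab1* fell from 17.1, 31.8 and 22.2 in fl/fl to 0, 2.53 and 1.01 in Δ/Δ (-3.64 ± 0.46, adjusted p = 2.66e-06 in limma). *H2-Aa* fell from 23.1, 21.96 and 15.6 to 1.57, 3.37 and 2.02 (-2.69 ± 0.38, adjusted p = 8.88e-06 in limma). The 2 genes share 17 exonic bp on opposite strands. Of the 9 blood and immune markers, 4 were called higher in Δ/Δ (*Ptprc*, *Lyz2*, *Csf1r* and *Cd3e*) and 1 lower. Mean counts in fl/fl and Δ/Δ were 6.49 and 20.5 for *Lyz2*, 11.7 and 30.5 for *Csf1r*, and 1.71 and 9.53 for *Cd3e*. The one called lower was *Aif1*, a macrophage gene, at 6.04, 3.29 and 5.56 in fl/fl and 2.35, 0.842 and 2.02 in Δ/Δ. *Cd68*, also of macrophages, was at 47.3, 57.1 and 60.0 and 76.8, 58.1 and 75.8, with overlap, and was not called. *Ptprc*, which marks leukocytes, had no read in fl/fl and 5 reads in Δ/Δ. The part of such cells in the class II values was not tested.

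Of 56 other interferon-stimulated genes tested in females, 10 rose (17.9%) and 18 fell (32.1%), beside 25.4% and 24.6% of all genes. *Parp12*, a mono-ADP-ribosyltransferase with antiviral activity, rose from 76.5, 95.5 and 93.4 to 535, 532 and 539 (2.59 ± 0.10, adjusted p = 2.48e-13 in limma). *Lgals9*, which encodes galectin-9, rose from 19.1, 20.9 and 23.3 to 157, 141 and 159 (2.80 ± 0.17). *Phf11d* rose from 30.2, 26.4 and 33.4 to 143, 180.1 and 207 (2.51 ± 0.17). Those 3 genes were above every control library in each Δ/Δ library. *Oas2*, an oligoadenylate synthetase, rose from 1.01, 5.49 and 4.45 to 20.4, 22.7 and 25.3 (2.52 ± 0.42), and *Ifi27l2a* fell from 22.1, 17.6 and 23.3 to 3.13, 0.842 and 1.01 (-3.14 ± 0.41). All 4 had adjusted p of at most 6.81e-05 in limma. *Rnf125*, a ubiquitin ligase that turns RIG-I over, rose from 8.05, 4.39 and 3.34 to 47.0, 51.3 and 58.6 (3.16 ± 0.32, adjusted p = 1.91e-07 in limma) and belongs to 10 negative regulators, of which 4 rose and 3 fell.

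Upstream of the members, ligands were barely present. The 10 interferon ligand genes held 52 reads in all 12 libraries, 43 of them on *Ifnk*, and *Ifnb1*, *Ifna1* and *Ifne* had no read. A count of 0 allows up to 3 reads. None of the 4 ligand genes tested in females or the 5 in males passed the threshold in limma, and 0 had an unadjusted p under 0.05. Of 10 receptor and JAK-STAT genes, 3 rose and 3 fell in females, or 30% each, near the 25.4% and 24.6% of all genes. *Ifnar1* rose from 716, 705 and 779 to 1063, 1033 and 978 (0.48 ± 0.06, adjusted p = 3.04e-06 in limma). *Ifngr1*, a chain of the interferon gamma receptor, fell from 132, 139 and 115 to 94.8, 107 and 108 (-0.31 ± 0.12, adjusted p = 0.0411 in limma). That call is marginal. *Ifnar2* was at 95.6, 121 and 75.6 and 118, 93.4 and 111 (adjusted p = 0.43 in limma). *Mavs*, the mitochondrial adaptor of RIG-I and MDA5, fell from 195, 219.6 and 213 to 141, 117 and 139 (-0.66 ± 0.10, adjusted p = 3.48e-05 in limma), whereas 6 of the other 11 sensor and adaptor genes rose. Of 7 interferon regulatory factor genes 4 fell and 0 rose. Of 22 class I assembly genes 6 rose (27.3%) and 5 fell (22.7%), near the shares of all genes.

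In males, 139 of the 150 genes were tested and 9 rose and 4 fell, beside 4.19% and 3.58% of all genes. The calls came from 3 lists, the interferon regulatory factors (2), the other interferon-stimulated genes (8) and the negative regulators (3). The remaining 5 lists held 63 genes tested, none of which limma or limma voom called, and 16 had an unadjusted p under 0.05 in limma. *Socs3*, the feedback inhibitor of JAK signalling, rose from 143, 195 and 145 in flY to 248, 1017 and 938 in ΔY (1.95 ± 0.45, adjusted p = 0.0326 in limma). *Ptpn6*, the phosphatase SHP-1, rose from 109.7, 122 and 109 to 154, 291 and 317 (1.09 ± 0.26), and *Nlrx1*, a mitochondrial regulator, from 32.9, 14.5 and 24.4 to 43.01, 105 and 95.2 (1.69 ± 0.42). In these 3 genes ΔY A was the mutant library nearest to the controls. Adjusted p was 0.0352 and 0.0415 in limma for the latter 2. Among 11 alternatives, *Socs3* and *Ptpn6* were called in only 5 each and *Nlrx1* in 4.

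*Lgals9* and *Parp12* rose in males as in females. *Lgals9* went from 38.9, 68.2 and 25.9 to 90.1, 134 and 177 (1.63 ± 0.37, adjusted p = 0.0314 in limma) and *Parp12* from 138, 147 and 101 to 279, 255 and 251 (1.04 ± 0.18, adjusted p = 0.0103 in limma). *Ddx60*, a helicase that aids RIG-I, fell from 123, 83.7 and 129 to 60.9, 20.3 and 18.6 (-1.91 ± 0.43, adjusted p = 0.0298 in limma), and *Oas3* fell from 206, 127 and 206 to 70.6, 103 and 95.2 (-0.98 ± 0.24, adjusted p = 0.0411 in limma). Both had also fallen in females. *Irf4*, a lymphoid factor, fell from 22.9, 11.4 and 37.4 to 0, 0 and 3.10 with adjusted p = 0.0141 in limma. It had 60 reads in flY and 3 in ΔY, a ratio of 23.9 with a counting interval of 7.79 to 119, and its 2 higher flY values belong to libraries A and C, those with raised olfactory receptor counts. *Ifnar1* was at 1669, 879 and 1710.2 and 968, 811 and 984, *Ifnar2* at 107, 79.6 and 81.9 and 74.7, 156 and 142, *Ifngr1* at 111, 71.3 and 119 and 135, 156 and 169.6 and *Mavs* at 180.5, 181 and 189.7 and 167, 244 and 264, and none of these 4 was called, with adjusted p of 0.125 to 0.396 in limma. As with the members, single libraries decided the number: other pathway genes called in males were 31 without ΔY A, 25 without flY B, 3 without ΔY C, 1 without ΔY B, 1 without flY A and 0 of 139 without flY C, where 32 had an unadjusted p under 0.05 in limma. Without both flY B and ΔY A, which leaves flY A and C as the controls, it was 61. Among the 11 alternatives, *Parp12* was called in 10, *Irf4* in 8, *Ddx60* in 7, and *Lgals9* and *Oas3* in 6 each.

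**Figure D4:**
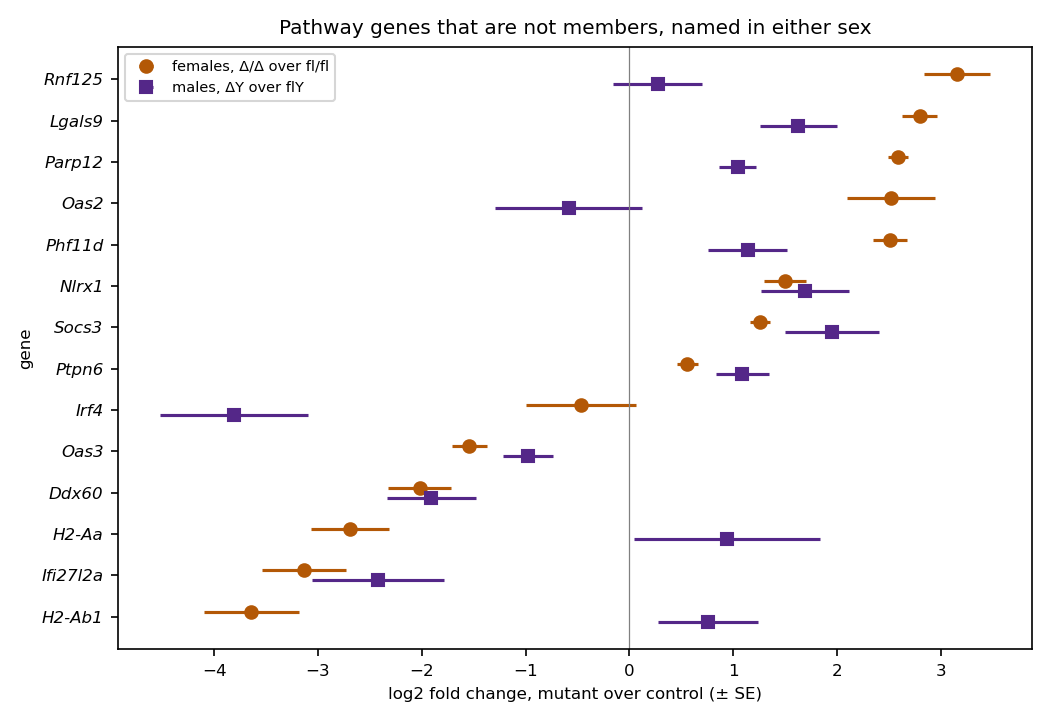
Log2 fold change (± SE, 3 libraries against 3) of 14 pathway genes that are not members, in females (circles) and males (squares), for the genes named in either sex. *Lgals9* and *Parp12* lie right of 0 and *Ddx60* left of 0 in both sexes, while *H2-Ab1* lies at -3.64 in females and 0.75 in males.

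For genes that are not members, a limma interaction term over all 12 libraries asked whether the mutant change differed between females and males. Of 142 genes tested, 24 had a male change above the female change and 19 below it, where 10.6% and 10.7% of all 22014 genes did so. *H2-Ab1* differed by 4.40 on the log2 scale between the sexes (adjusted p = 0.00103 in limma), with ΔY values of 38.1, 65.9 and 46.5 against 42.9, 12.4 and 43.1 in flY. *Rnf125* differed by -2.88 (adjusted p = 0.00257) and *Parp12* by -1.55 (adjusted p = 0.000122) in the same limma fit, both with the larger increase in females. By list, class II genes held 5 with the male change above the female change and 2 below, of 14 tested. Without flY B and ΔY A, which leaves flY A and C as the male controls, 75 genes were called.

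Control females and control males were set side by side as well. The members were chosen with these control levels in view, so the values describe them and test nothing. Markers of other cells differed between the controls too. Primitive endoderm markers summed to 429 to 479 in fl/fl and 1746 to 2477 in flY. Fibroblast markers summed to 2912 to 2979 and 1029 to 1175, while trophoblast markers, at 373 to 392 and 346 to 450, overlapped. The part of other cells in the ratios below was not tested. The size factors behind the deposited means were 0.988 to 0.999 times those computed jointly over the 12 libraries, so the values of both tables are on one scale. Of the 43 members, 7 were called higher and 4 lower in fl/fl than in flY in limma over all 12 libraries, where 9.7% and 11.8% of all 22014 genes were called. *Gbp2b* was the farthest apart, at 1.01, 1.098 and 1.11 in fl/fl and 122, 50.7 and 108 in flY, which was 3 reads against 246, a ratio of 86.3 with a counting interval of 29.2 to 421. *H2-K1* was at 92.5, 102 and 105 and 396, 340.1 and 349 (a log2 ratio of -1.85 ± 0.17). *Stat2* (-1.04 ± 0.20) and *Trim25* (-0.97 ± 0.15) were also lower in the females.

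On the other side, *Psmb9* was at 85.5, 104 and 129 in fl/fl and 35.9, 31.0 and 43.1 in flY (1.502 ± 0.26). *Tap2* (1.28 ± 0.35), *Oasl2* (1.30 ± 0.34) and *Zbp1* (1.29 ± 0.42) were higher in control females as well. Among 18 alternatives, *Zbp1* was called in only 7, *Oasl2* and *Tap2* in 14 each and *Stat2* in 17. *Psmb10*, *Tapbp* and *Adar* made up the 7, with log2 ratios of 0.34 to 0.78. Values of *Psmb9* in Δ/Δ females, 36.8, 29.5 and 33.3, lay in the range of those in flY and ΔY males, 21.7 to 43.1. For *Psmb8* the Δ/Δ values of 7.05, 10.1 and 4.04 lay below all 6 male values. The number of members called was 7 without flY A and C, 7 without fl/fl B, 17 without ΔY A and 22 without flY B and ΔY A.

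**Figure D5:**
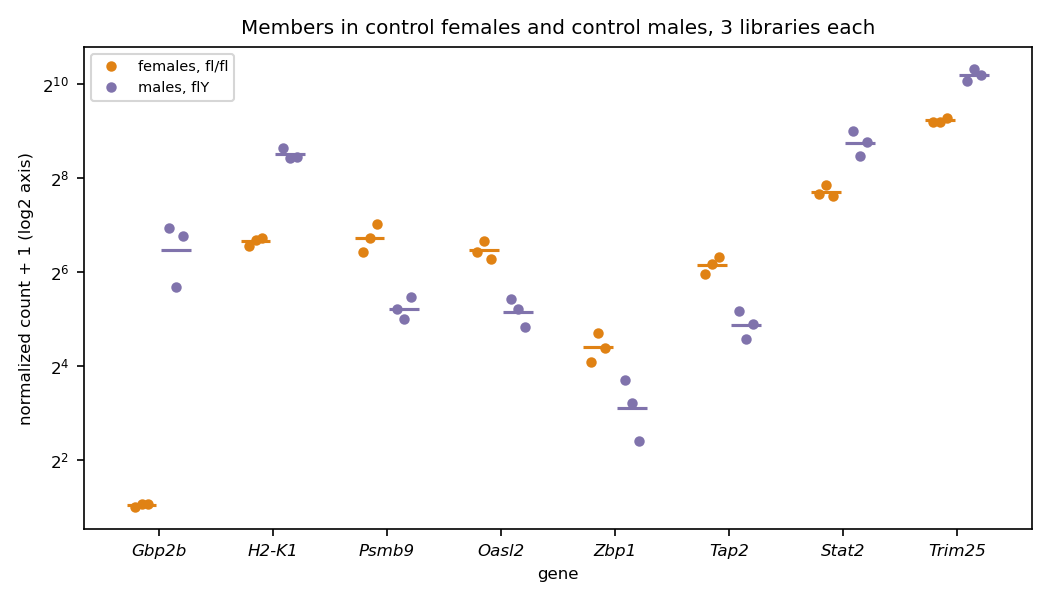
Normalized count + 1 (log2 axis) of the 8 members with the largest called ratio in the 3 fl/fl (females) and 3 flY (males) libraries, with a bar at the geometric mean. *Gbp2b*, *H2-K1*, *Stat2* and *Trim25* are higher in every male library and *Psmb9*, *Oasl2*, *Zbp1* and *Tap2* in every female library.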

How the data were processed

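EpiLC RNA, depleted of ribosomal RNA, was made into strand-specific libraries for single-end sequencing of 50 bp. Reads were mapped by the authors to mm9 with TopHat2 2.1.0 and Bowtie2 2.2.6.0, keeping unique reads with up to 1 mismatch. DESeq and Cuffdiff stand in the submitters' processing notes; the counter and the annotation of these tables are not given in the sources used here. The 2 tables that the authors deposited, 1 per sex, hold a signal column per genotype, the mean normalized count of 3 libraries. Their columns of fold change, log2 fold change, p and adjusted p are the authors' own comparison and were not used.

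Since a mean of 3 libraries fixes the whole reads behind it once the size factors are known, reads were solved for genes with a mean up to 10000. Each gene searched had exactly 1 solution, and 22808 of 22911 genes were solved in all 12 libraries. The solver was tested on simulated data. Libraries could not be tied to sample names or lines.

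Limma 3.58.1 (R 4.3.3, intensity trend) was fitted to log2(normalized count + 1) of all genes with a read, within each sex, or over all 12 libraries for the contrast of controls and the interaction. Adjusted p is Benjamini-Hochberg over all genes tested. The deposited values are not counts, and negative binomial models were not fitted to the whole reads recovered from them. P-values measure the spread between these libraries. Alternatives were a pseudocount of 0.1, a minimum mean of 10, scaling to recovered totals, limma voom and leaving out libraries. Genes were placed on mm9 with GENCODE models, and promoters came from RefSeq (GRCm38.p6). Scripts ran in Python 3.11.15 with matplotlib 3.10.9, numba 0.67.0, scipy 1.17.1, pandas 2.3.3 and numpy 2.4.6.

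The members and all gene lists were chosen with earlier results of these data known. Library values are printed for members with a mean of at least 10 and the largest absolute log2 fold change (12 in females, 6 in males), for *H2-K1*, *H2-D1*, *B2m*, *Irf3* and key genes (*Kdm5c*, *Ifnar1*, *Ifnar2*, *Ifngr1*, *Mavs*), for up to 8 called other pathway genes per sex, and for up to 8 members called between controls. Other genes named, and the library values of *Psmb10*, *Tapbp*, *Gbp2*, *Dnmt3b*, *Aif1* and *Cd68*, were chosen after their values were seen. Some items of the lists are not reported here.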

Additional observations from a re-analysis of the deposited data

Results flagged for a closer look

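Of the pathway genes named above that are not members, 7 differed between the sexes in the effect of the mutation, by the interaction of sex and genotype in limma. The male change was above the female change for *H2-Ab1* by 4.40 and for *H2-Aa* by 3.63 on the log2 scale. It was below the female change for 5 genes, with a male minus female difference for *Irf4* of -3.35, for *Oas2* of -3.10, for *Rnf125* of -2.88, for *Parp12* of -1.55 and for *Phf11d* of -1.37. Adjusted p ranged from 0.000122 (*Parp12*) to 0.0492 (*Phf11d*). Over the 17 alternatives of each gene, or 16 where a gene could not be fitted in 1 of them, *H2-Ab1*, *Parp12* and *Rnf125* stayed past the threshold in all, while *Phf11d* missed it in 12, *H2-Aa* in 9, *Irf4* in 6 and *Oas2* in 3.

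Another 8 results are members that lay in opposite directions in the sexes, with every mutant library on one side of the controls in females and on the other in males. The share of all genes that did so was not counted. The difference is given as not tested, because the members were chosen on both contrasts and the interaction term fitted to all genes is no test of them. Log2 fold changes in females and males were -0.53 and 2.33 for *Ifih1*, -0.15 and 0.76 for *Irf1*, -0.66 and 2.22 for *Usp18*, and -1.56 and 1.58 for *Rtp4*. They were -0.62 and 0.83 for *Gbp2*, -0.65 and 0.83 for *Gbp7*, -0.77 and 0.84 for *Tapbp*, and 0.67 and -0.45 for *H2-D1*. *Usp18*, *Rtp4* and *Ifih1* rest on few reads, with at most 27.4 normalized counts in any library. Single values were not screened for outlying libraries, since a group of 3 is too small for such a screen, and the libraries that stood apart over all genes are described in the report.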

How the results depend on the processing

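Female results moved little. Without any 1 library, genes called ranged from 8810 to 9139, other pathway genes called from 66 to 73, members called from 20 to 21 and the median of the members from -0.52 to -0.45, which was -0.54 with scaling to recovered totals. Male results depended on the libraries. Without any 1 library, genes called ranged from 331 to 4684, other pathway genes called from 0 to 31, members called from 1 to 14 and the median from 0.28 to 0.33. Without flY B and ΔY A together, they were 9377, 61, 21 and 0.15. The male controls of that fit are flY A and C, with raised olfactory receptor counts. Limma voom on all libraries called 5 other pathway genes and 2 members. The members called between controls ranged from 7 to 17 without any 1 library, and were 7 without flY A and C and 22 without flY B and ΔY A. The other pathway genes with an interaction ranged from 32 to 57, and were 75 without flY B and ΔY A. The log2 fold change of *Ifnar2* in females, not called in the first place, went to -0.00427 without fl/fl C, and *Ifngr1* in females lost its call in 5 of 10 alternatives.

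Scaling to recovered totals moved the share of higher among called genes from 53.9% to 47.5% in males, from 50.8% to 44.6% in females and from 45.0% to 37.9% between controls, while the median log2 of all genes fell by 0.0340 in males, fell by 0.0559 in females and fell by 0.0458 between controls. Without flY B and ΔY A that share was 41.1% in males. The sign of the log2 fold change of a member differed from the main one in at least 1 alternative for 5 of 43 members in females and 7 of 43 in males. No paired analysis was possible because the recovered libraries carry no replicate numbers. Depth limits members under 10 normalized counts, where a few reads decide a fold change.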
